A study of Mus musculus with 2 samples.

Results

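Cycling cells were found among Sox1-GFP+ cells sorted from mouse brain, as single cells with a molecule of at least 2 of 5 proliferation genes, Mki67, Top2a, Ube2c, Cdk1 and Birc5. They numbered 249 of the 7988 brain cells kept (3.12%, exact 95% binomial interval 2.75 to 3.52), and of 9952 kept cells in the brain and tail libraries together. A further 7612 brain cells held none of the 5 genes and served as the comparison, and 127 cells (1.59%) held exactly 1. Among the cycling cells, 210 also held a molecule of Dlx1 or Dlx2 and 39 held neither.

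The brain cells came from adult mice whose Sox1 gene carries a GFP knock-in, so that the Sox1 promoter drives the reporter wherever that gene is active and green cells are not one cell type. Whole brain was minced and trypsinised, GFP+ cells were sorted by flow cytometry, and single cells were captured on the BD Rhapsody system, which counts polyadenylated RNA near its 3′ end. The study keeps its mice on a CD1 background or on CD1 and C3H mixtures. Each group was 1 library, with no further replicate, so no test between conditions was possible. All intervals below cover counting error only, and the number of animals pooled was not given in the sources used here. Cycling and other brain cells came out of the same library and shared its sort, capture and sequencing. A tail library of the same genotype, from postnatal animals, is given in 1 paragraph at the end.

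The cell cycle is driven by cyclins and their kinases. Origins are licensed by the Mcm helicase in G1, DNA is copied in S phase, and the chromosomes are condensed, attached to the spindle through kinetochores and separated in mitosis, after which the anaphase-promoting complex destroys the mitotic cyclins. In the adult mouse forebrain, quiescent astroglia-like stem cells of the ventricular-subventricular zone give rise to dividing intermediate progenitors. These produce neuroblasts that express Dlx1, Dlx2 and Dcx, migrate to the olfactory bulb and become mostly GABAergic interneurons. Neuroblasts of this lineage can still divide.

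The 5 genes that chose the cells have different roles: Top2a untangles sister chromatids, Mki67 coats mitotic chromosomes, Ube2c is the ubiquitin-conjugating enzyme of the anaphase-promoting complex, Cdk1 is the kinase of mitotic entry and Birc5 (survivin) belongs to the chromosomal passenger complex. Their promoters are shown because 4 of them share 2 sequence elements known from late cell-cycle genes, the cell-cycle genes homology region (CHR, TTTGAA) and the CCAAT box (CCAAT). Each run holds 191 bases, 5′ to 3′ on the strand of the gene, from 200 to 10 bases before the RefSeq start (GRCm38.p6), with every match to either element on either strand in capitals.
Mki67: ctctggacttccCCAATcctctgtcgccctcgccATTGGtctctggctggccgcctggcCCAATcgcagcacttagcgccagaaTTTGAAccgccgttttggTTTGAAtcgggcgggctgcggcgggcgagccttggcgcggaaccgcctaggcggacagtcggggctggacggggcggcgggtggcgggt
Top2a: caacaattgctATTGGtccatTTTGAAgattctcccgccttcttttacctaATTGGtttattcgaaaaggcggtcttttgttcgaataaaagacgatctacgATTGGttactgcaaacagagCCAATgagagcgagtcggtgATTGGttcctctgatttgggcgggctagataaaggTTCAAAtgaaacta
Ube2c: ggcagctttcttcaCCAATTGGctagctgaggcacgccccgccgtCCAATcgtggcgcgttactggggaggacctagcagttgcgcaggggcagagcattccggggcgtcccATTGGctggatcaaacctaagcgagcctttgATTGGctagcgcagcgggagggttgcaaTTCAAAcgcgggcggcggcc
Cdk1: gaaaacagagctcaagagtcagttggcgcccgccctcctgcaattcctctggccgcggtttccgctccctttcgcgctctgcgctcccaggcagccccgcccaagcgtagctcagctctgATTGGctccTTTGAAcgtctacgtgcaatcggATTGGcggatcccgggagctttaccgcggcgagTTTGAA
Birc5: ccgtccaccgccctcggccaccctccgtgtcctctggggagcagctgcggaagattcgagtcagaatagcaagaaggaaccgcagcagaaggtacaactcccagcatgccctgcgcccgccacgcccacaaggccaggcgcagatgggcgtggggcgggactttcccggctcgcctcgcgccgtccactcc

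The runs lie at chr7:135716389-135716579 (minus strand) for Mki67, chr11:99024199-99024389 (minus) for Top2a, chr2:164769729-164769919 (plus) for Ube2c, chr10:69352922-69353112 (minus) for Cdk1 and chr11:117849037-117849227 (plus) for Birc5. The last 22 bases of the Ube2c run and the last 17 of the Cdk1 run fall inside the gene in the GENCODE annotation, and the others lie wholly before it. Mki67 had 2 CHR words and 3 CCAAT boxes, Top2a 2 and 5, Ube2c 1 and 5, of which a pair overlap, and Cdk1 2 and 2. Birc5 had neither word in this window.

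Over the 250 bases before the start, the CHR was found in 16.0% of all 32851 RefSeq promoters, the CCAAT box in 33.8% and both in 5.55%. Among 7719 of the 9736 genes tested in the first comparison below, these shares were 9.64%, 37.1% and 3.73%. Among 42 of the 49 genes of a commonly used G2/M list that had a promoter in the table, after leaving out the 5 genes of the rule, 15 held the CHR (35.7%), 32 the CCAAT box (76.2%) and 13 both (31.0%). Among 31 of the 43 genes of the matching S-phase list, 5 held the CHR (16.1%), 22 the CCAAT box (71.0%) and 4 both (12.9%). An E2F word (TTTGGCGC or TTTCCCGC, either strand) was found in 1 of the 42 G2/M promoters and in 8 of the 31 S-phase promoters (25.8%). It was found in 1.30% of all promoters and in 2.79% of those of the genes tested. These are letter matches and were not tied to binding of any factor.

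Top2a was the gene found most often, in 222 of the 249 cycling cells (89.2%) with 815 molecules and at most 17 in a cell. Mki67 was found in 185 cells (74.3%, 418 molecules), Ube2c in 169 (67.9%, 571), Birc5 in 156 (62.7%, 264) and Cdk1 in 133 (53.4%, 213). The cells were selected on these detections, so the values are a description only. By the number of the 5 genes found, 62 cells had 2, 65 had 3, 64 had 4 and 58 had all 5, with a median of 1263, 1363, 1656 and 1884 molecules per cell respectively. Just outside the rule, the 127 cells with exactly 1 gene had a median of 1077 molecules, and their single gene was Top2a in 51 cells, Ube2c in 32, Mki67 in 23, Cdk1 in 11 and Birc5 in 10.

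A rule based on detection selects cells with many molecules. Cycling cells had a median of 1522 molecules (range 316 to 3586) and cells with none of the genes a median of 681, from 404015 and 5876064 molecules in all. The share of mitochondrially encoded molecules, a common sign of cell quality, had a median of 8.85% in cycling cells and 14.5% in cells with none. How far larger cells, deeper capture and detection each set this gap cannot be told apart. Levels below are therefore per 1000000 molecules of a group (CPM). Shares of cells are not thinned unless this is said, and depth favours unthinned shares. Thinning drew each cell with at least 500 molecules down to 500 and left out cells with fewer. Lists and selected genes whose ratio moved by over 1.5 times are given again among cells with at least 1522 molecules (matched depth). There, 125 cycling cells and 349 cells with none remained.

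The label of cycling cells was checked on genes the rule did not use. Of the 249 cells, 244 held molecules of both the S-phase and the G2/M list (98.0%), with a median of 8 molecules of the first and 30 of the second. This share asks for only 1 molecule of each list, which depth favours. Among cells with at least 1522 molecules, at least 2 genes of each list were carried by 123 of 125 cycling cells and by 78 of 349 cells with none. Cells with none of the 5 genes had the G2/M list at 1156 CPM, against 6690 CPM in cells with 1 gene, 12077 with 2, 19067 with 3, 24318 with 4 and 28480 with 5. Over the same steps the S-phase list stood at 604, 6289, 8164, 7441, 5663 and 5003 CPM. The G2/M list was thus higher at each step, whereas the S-phase list was highest in cells with 2 of the genes.

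The lineage lists behaved differently over these steps. The neuroblast list (Dcx, Sox11, Stmn2 and 11 others) stood at 4891 CPM in cells with none, 11469 CPM with 1 gene, and between 11271 and 11822 CPM with 2 to 5 genes. The astroglial list (Slc1a3, Aqp4, Aldoc and 11 others) stood at 52295 CPM with none, 9952 with 1, 4672 with 2 and between 2026 and 2872 with 3 to 5. The share of cells with Dlx1 or Dlx2 was 17.8% with none, 63.8% with 1, 77.4% with 2, 84.6% with 3, 87.5% with 4 and 87.9% with 5, and it also follows the molecules per cell.

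**Figure D1:**
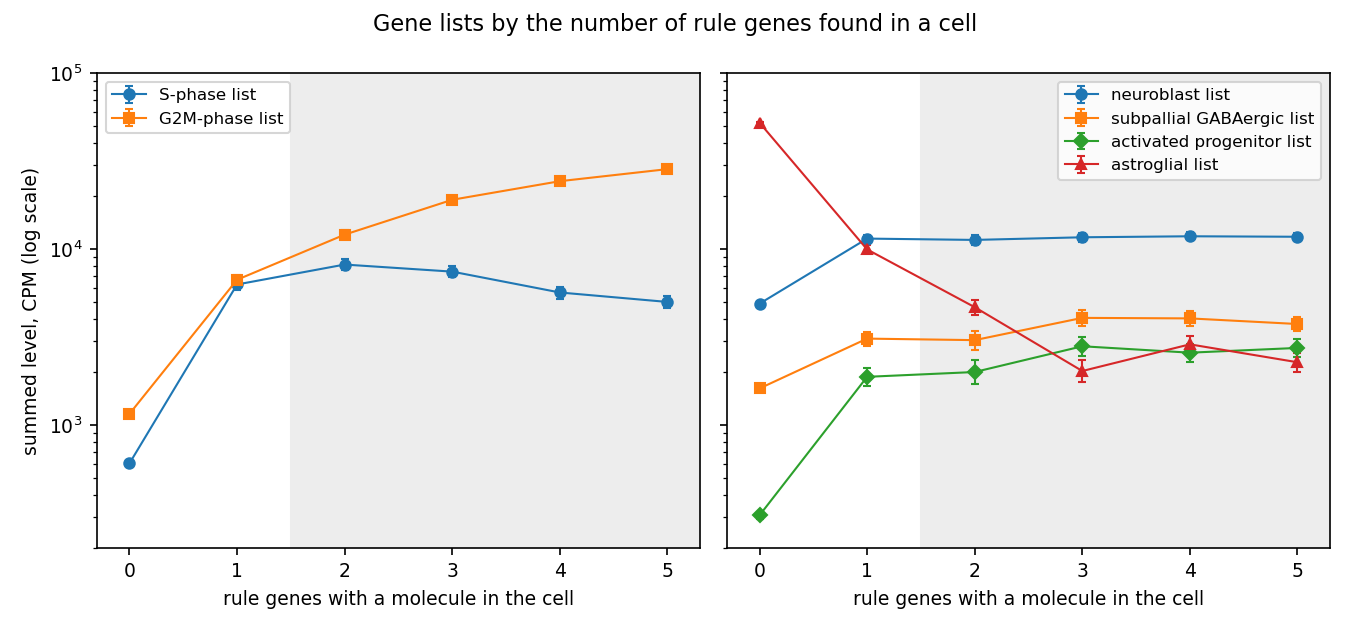
Summed level of each gene list (CPM, log scale) against the number of the 5 rule genes found in a cell, with 95% Poisson intervals; cells per step are 7612, 127, 62, 65, 64 and 58. The G2/M list climbs to 28480 CPM with all 5 genes, the S-phase list peaks at 8164 CPM with 2, and the astroglial list drops from 52295 CPM to between 2026 and 2872 CPM from 3 genes on.

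The progenitor part of the label was described by the cells that carried at least 2 genes of a list. The lists differ in length and the cycling check asked for less, so these shares do not rank the parts of the label. They are not thinned, and no share of the cells with none is set beside them. Those cells held the neuroblast list at 4891 CPM, so the counts do not set the cycling cells apart. At least 2 genes of the neuroblast list were carried by 245 of the 249 cells, at least 2 of the GABAergic subpallial list (Dlx5, Sp9, Gad1 and 9 others, without Dlx1 and Dlx2) by 198, and at least 2 of the activated and intermediate progenitor list (Egfr, Insm1, Dll1 and 6 others) by 124. By single genes, Dcx was found in 135 cells (54.2%) and Egfr in 33 (13.3%). At least 2 astroglial genes were carried by 93 of the cells (37.3%), 90 of which also carried at least 2 neuroblast genes. Of other lineages, at least 2 oligodendrocyte progenitor genes were carried by 3 cells and at least 2 glutamatergic pallial genes by 3. At least 2 microglial, vascular, ependymal or erythroid genes were carried by 0 of 249 cells. By 3 counts this 0 allows up to 1.20% of cells with at least 2 such genes found, at these depths. Single molecules of the microglial, vascular and ependymal lists did occur and are given below. The 249 cells are therefore called cycling cells here, with no claim that each was a progenitor.

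The rest of the checks concern the library. Of 29 barcodes shared by the brain and tail files, 18 were kept and 1 belonged to a cycling cell. Scrublet called 76 of the 7988 kept brain cells doublets (0.951%), of which 6 were cycling cells (2.41%) and 69 were cells with none (0.906%). Of the 4123 brain barcodes not kept, 1 held 2 or more of the 5 genes. The brain library held 1.24 reads per molecule.

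The first comparison asked how cycling cells differ from brain cells with none of the 5 genes. Of 9736 genes with at least 50 molecules over both sides, 999 were called higher in cycling cells (10.3%) and 1052 lower (10.8%), where a call means that the whole 95% interval of the ratio lay beyond 2-fold; over all of them 21.1% were called and the median ratio was 1.09. The genes that made a split and the mitochondrially encoded genes were left out of all such counts, apart from the narrowed Dlx split given below. The split depends on scaling, since 584 genes were higher under TMM scaling and 638 under median-ratio scaling, which shift every log2 ratio by -0.38 and -0.32. Among the cells with at least 1522 molecules, 529 were higher and 631 lower. The higher genes covered every part of the division machinery, and many mitotic genes were near absent from cells with none.

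Genes of the spindle and of cytokinesis stood farthest apart. The rule genes act mostly in mitosis and the comparison cells hold none of them. The order of mitotic and S-phase lists is therefore set in part by the rule. All 18 with enough molecules were called higher, and their sum was 115-fold higher in cycling cells (101 to 131; 71.7-fold at matched depth). Tpx2, which activates Aurora A on the spindle, had 246 molecules in 136 cycling cells and 25 molecules in the 7612 cells with none, a 143-fold higher level (94.7 to 225). Prc1, the bundler of the central spindle, had 244 molecules against 13 (273-fold, 157 to 520), and the cytokinesis kinesins Kif23 and Kif20a had 139 against 6 and 85 against 2. Hmmr, a spindle assembly factor (120 against 3), Nusap1 (168 against 8), Aspm (102 against 3), Ckap2l (216 against 11) and Kif18b (56 against 1) had the same shape. At matched depth Prc1 was 99.4-fold (38.0 to 369), Aspm 155-fold (26.8 to 6217), Kif23 106-fold (28.4 to 888) and Kif18b 92.9-fold (15.6 to 3770) higher.

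Kinetochore and checkpoint genes were 19.8-fold higher as a sum (18.4 to 21.4), with 11 of 12 called. Spc25, a subunit of the Ndc80 complex that grips microtubules, had 172 molecules in 120 cycling cells and 1 molecule in all cells with none, a ratio of 2502 with an interval of 443 to 99375. Cenpf had 317 against 23 molecules (200-fold, 131 to 321), Cenpa, the centromeric histone, 190 against 26 (106-fold, 70.3 to 167), and the checkpoint kinase Bub1 91 against 3 (441-fold, and 147-fold at matched depth). Zwint was the gene not called, at 122 against 879 molecules and a ratio of 2.02 (1.66 to 2.44), and it held 879 of the list's 1122 molecules in cells with none.

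Condensin and cohesin genes were 19.7-fold higher (18.2 to 21.2; 7 of 7 called). Smc4, the condensin ATPase, was found in 204 cycling cells with 686 molecules against 348 in cells with none (28.7-fold, 25.2 to 32.7), and Ncapg had 87 against 4. The cohesin subunit Rad21, which also acts outside division, was 7.72-fold higher (6.73 to 8.85). Genes of mitotic exit were 10.4-fold higher (9.48 to 11.3; 7 of 7), from Cdc20, the activator of the anaphase-promoting complex, with 101 against 7 molecules, to Ube2s at 9.13-fold (7.68 to 10.8) and Pttg1 (securin) at 4.11-fold (3.14 to 5.32).

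S-phase machinery was less extreme but called throughout. All 9 licensing genes were higher (sum 10.1-fold, 9.12 to 11.2), among them the helicase subunits Mcm6 (12.05-fold, 111 against 134 molecules) and Mcm5 (13.2-fold, 100 against 110). All 17 fork and replication checkpoint genes were higher (11.2-fold, 10.4 to 12.2), with DNA ligase Lig1 at 15.7-fold, Uhrf1, which carries DNA methylation through replication, at 27.3-fold and Clspn, the claspin adaptor, at 58.2-fold. Nucleotide supply was 20.8-fold higher (18.4 to 23.4; 7 of 7), led by Rrm2, the S-phase subunit of ribonucleotide reductase, at 42.8-fold with 247 against 84 molecules. At matched depth these 3 lists were 5.74-fold, 7.10-fold and 11.7-fold higher.

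Cyclins split by phase. The mitotic cyclins Ccnb1 (233 against 5 molecules, 678-fold, 286 to 2107) and Ccna2 (388 against 17, 332-fold, 205 to 576) and the kinase subunit Cks2 (429 against 52, 120-fold) were rare in cells with none, and Ccna2 was 136-fold higher (57.4 to 422) at matched depth. Ccnd2, the D-type cyclin of this lineage, was also plentiful in cells with none (1718 against 4434 molecules) and 5.64-fold higher (5.33 to 5.96), found in 233 of 249 cycling cells. Ccnd3 was not called, at 1.13 (0.722 to 1.70), nor was Ccnd1, at 3.31 (1.87 to 5.58) and 2.19 (1.08 to 4.41) at matched depth.

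Inhibitors of the cycle were also present. Of 10 genes of inhibition and cell-cycle exit, 5 were called higher and 0 lower, and their sum was 2.80-fold higher (2.60 to 3.02). Cdkn2c and Cdkn2d, inhibitors of the Cdk4 and Cdk6 kinases, were 37.1-fold (24.2 to 58.1) and 9.26-fold (6.50 to 13.1) higher, while Cdk6 itself was 16.9-fold higher (12.5 to 22.9). Cdkn1b (p27), known for holding neuroblasts out of the cycle, was 3.05-fold higher. Btg1, an antiproliferative gene, stood at 1.18.

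The list of chromatin proteins and histone variants held 13917 molecules in cycling cells, and all 17 genes were called higher (7.80-fold, 7.64 to 7.96). Hmgb2, a DNA-bending protein of proliferating cells, was found in 239 of the 249 cells with 1843 molecules and was 50.8-fold higher (46.1 to 56.0). The histone variants H2afx and H2afz were 41.6-fold and 15.1-fold higher, and Ptma, prothymosin alpha, 6.14-fold. H2afz, Ptma and Hmgn2 have near-identical processed copies in the genome, so their counts are uncertain to the extent that the authors' counting split such reads. Genes of the cytoplasmic ribosome were 3.01-fold higher (2.96 to 3.05; 78 of 87 called).

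Progenitor genes followed. Of 8 activated and intermediate progenitor genes, 6 were called higher, and the sum was 8.35-fold higher (7.73 to 9.02). Insm1, a zinc-finger factor of intermediate progenitors, had 536 molecules in 196 cycling cells and 527 molecules in 361 cells with none (14.8-fold, 13.1 to 16.7), and the Notch ligand Dll1 was 10.0-fold higher (6.59 to 15.1). Egfr, the receptor of activated stem cells, stood at 0.93 (0.652 to 1.29).

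The stem cell and SoxB list summed to about the same level on both sides, at 1.04 (0.974 to 1.105), 0.80 under TMM scaling, 0.831 under median-ratio scaling and 0.720 at matched depth, with members on both sides. Nes, the intermediate filament of neural progenitors, was 10.1-fold higher (6.15 to 16.6), but 4.39-fold (1.90 to 10.7) at matched depth, where its interval no longer lay beyond 2-fold, Vim 2.43-fold and Pax6 2.84-fold. Sox1, the reporter gene itself, stood at 1.74 (1.35 to 2.20) with 76 molecules in 63 cycling cells, and Sox2 at 1.67 (1.47 to 1.88). On the other side Fabp7 was 3.38-fold lower (77 against 3786 molecules; its ratio went from 0.296 to 0.170 at matched depth), the Notch target Hes1 8.10-fold lower (5 against 589) and Hes5, another Notch target, had 0 molecules against 577, at least 13.2-fold lower against a limit of 3 molecules per group.

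Astroglial genes were lower throughout. All 14 were called lower and the sum was 18.2-fold lower (17.2 to 19.3), with 1160 molecules in cycling cells. Slc1a3, the glial glutamate transporter, was 15.0-fold lower, Gja1 (connexin 43) 32.8-fold and Slc6a11, a GABA transporter, 57.0-fold. Gfap had 0 molecules against 543, at least 12.4-fold lower. Genes outside the list shared the pattern: Sparc, a matrix protein, was 53.4-fold lower, Atp1b2, a subunit of the glial sodium pump, 34.0-fold, and Slc4a4, a bicarbonate cotransporter, 36.0-fold. Slc38a3, a glutamine transporter, Abhd3, the receptor Fgfr3, Clu (clusterin) and Gjb6 (connexin 30) were 38.6-fold to 65.2-fold lower. At matched depth the ratios of Slc6a11, Gja1, Fgfr3, Abhd3 and Gjb6 lay between 0.031 and 0.0545, each more than 1.5 times nearer to 1, and their intervals stayed beyond 2-fold. Of the 1160 astroglial molecules, 579 lay in 10 of the 249 cells. Without the doublets called by Scrublet Atp1b2, Clu, Gja1 and Gjb6 were lower still, all by more than 1.5 times.

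Neuroblast and subpallial genes were higher by a smaller factor. All 14 neuroblast genes had a ratio above 1 and 6 were called higher, with a sum 2.38-fold higher (2.31 to 2.46; 3.69-fold at matched depth). Sox11, the SoxC factor of newborn neurons, was 4.13-fold higher (3.87 to 4.41) and found in 231 cycling cells, Dpysl3 2.80-fold and Sox4 2.29-fold, while Dcx stood at 1.75 (1.526 to 2.004) and Stmn2 at 1.58 (1.35 to 1.83). At matched depth Dcx was 2.86-fold higher (2.17 to 3.79) and Stmn2 3.21-fold (2.13 to 4.87), both then beyond 2-fold. Of 10 subpallial genes, 4 were called higher, among them Sp9 at 3.40-fold, Dlx5 at 4.34-fold (10.1-fold at matched depth) and Dlx6 at 14.5-fold, and the sum was 2.33-fold higher (2.21 to 2.46; 4.46-fold at matched depth). Dlx6 overlaps its antisense neighbour Dlx6os1 (chr6:6863334-6868568 on the plus strand against chr6:6820189-6871592 on the minus strand), and strand use in counting was not given in the sources used here, so the 2 cannot be told apart with certainty.

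Lists for other cell types differed. The oligodendrocyte list held 11 molecules and was 23.0-fold lower (12.9 to 46.2; its ratio went from 0.0434 to 0.0100 at matched depth). The oligodendrocyte progenitor list stood at 0.841 (0.652 to 1.07), the glutamatergic pallial list at 0.872 (0.558 to 1.31) and the cerebellar granule cell progenitor list at 1.12 (0.814 to 1.497), or 0.374 (0.218 to 0.608) at matched depth, and the mature neuron list at 0.644 (0.513 to 0.80), or 1.20 (0.826 to 1.72). The microglial list held 10 molecules, the ependymal list 3, the endothelial and mural list 2 and the erythroid list 0. Olig2, the factor of the oligodendrocyte lineage, had 40 molecules in 22 cells and a ratio of 0.951 (0.672 to 1.31). Immediate early genes, which dissociation can induce, were 2.63-fold higher (2.56 to 2.71; 5 of 9 called), with Egr1 at 3.94-fold and Fos at 2.20-fold. At matched depth the list was 4.53-fold and Fos 4.01-fold higher, and their part in the other differences was not tested.

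**Figure D2:**
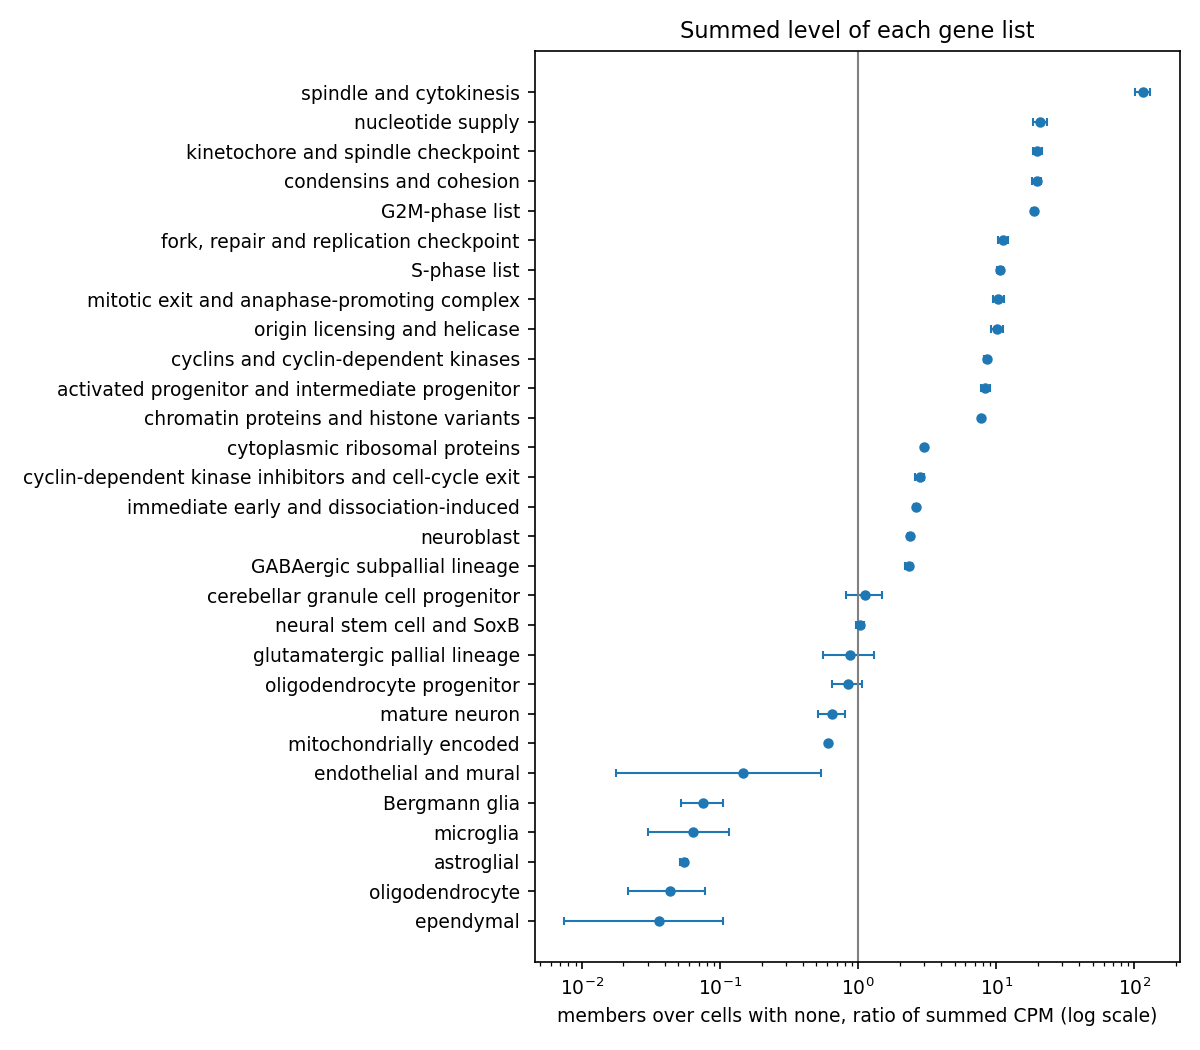
Summed level of each gene list in the 249 cycling cells over the 7612 cells with none, as a ratio of CPM on a log axis with its 95% interval; the grey line marks equal levels. Spindle genes lie at 115, nucleotide supply at 20.8 and neuroblast genes at 2.38, and astroglial and oligodendrocyte genes lie below 0.1.

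The second comparison set the 210 cycling cells with Dlx1 or Dlx2 against the 39 with neither. Dlx1 was found in 192 and Dlx2 in 143 of the 249. With cells thinned to 500 molecules and those with fewer left out, 149 of 247 cycling cells (60.3%, 53.9 to 66.5) held either gene. So did 875 of 5885 cells with none (14.9%, 14.0 to 15.8), against 1.79% of astroglial-like cells with none. Median depths before thinning were 1535, 770 and 792 molecules. The 2 groups of cycling cells were alike in depth, with medians of 1505 and 1716 molecules, and in mitochondrial share, 8.82% and 9.13%. A missing Dlx molecule does not show that a cell lacks the transcript.

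Few of the genes with enough molecules to be tested were called. Of 1542 genes tested, 7 were called higher in the Dlx group (0.454%) and 5 lower (0.324%), 0.778% in all, and the median ratio was 1.05. Under either other scaling, which shifts log2 ratios by 0.24 or 0.23, 13 were higher and 2 lower. The counts also depend on the minimum of molecules, which the Dlx group met more easily, with 336089 molecules against 67926. With at least 20 molecules over both sides 12 genes were higher and 13 lower, and with no minimum 12 and 43. The small number of calls therefore does not show that the groups were alike. The 7 genes higher were neuronal or of the subpallial lineage: the Sp-family factor Sp9 (159 molecules in 95 of 210 cells against 4 in 2 of 39, 8.03-fold, 3.08 to 29.8), the GABA-synthesising enzyme Gad1 (87 against 2, 8.79-fold, 2.36 to 73.7), the adhesion molecule Ncam1 (311 against 14, 4.49-fold), the microtubule proteins Stmn2 (185 against 9, 4.15-fold), Map1b (244 against 13, 3.79-fold) and Tubb3 (234 against 13, 3.64-fold), and Nrep (337 against 20, 3.41-fold). At matched depth the intervals of Map1b (8.12-fold) and Nrep (4.76-fold) stayed beyond 2-fold, whereas those of Stmn2 (2.01-fold, 0.862 to 5.74), Ncam1 (3.43-fold, 1.81 to 7.30) and Tubb3 (3.23-fold, 1.58 to 7.67) did not, and Sp9 and Gad1 had 0 molecules in the 23 cells left without Dlx, so that no ratio could be given.

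Progenitor genes went the other way as a list. After thinning, at least 2 of them were found in 11.0% of cells with Dlx and 56.8% of those without, against 19 of 4746 astroglial-like cells with none. Single genes lower in the Dlx group included Gas1, a membrane protein linked to growth arrest (4.02-fold, 32 against 26 molecules), the stress gene Gadd45g (3.78-fold, 34 against 26), Mfge8, a secreted glycoprotein of astroglia (3.71-fold, 64 against 48), and the RNA-binding Zfp36l1 (3.48-fold, 37 against 26). At matched depth the intervals of these 4 genes reached from 0.503 (Gas1) to 0.708 (Zfp36l1) at their upper end and none lay beyond 2-fold.

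By list, all 7 subpallial genes with enough molecules had a ratio above 1 and 2 were called, Sp9 and Gad1, with a sum 3.09-fold higher (2.51 to 3.86). All 13 neuroblast genes were above 1 and 4 were called, with a sum 2.15-fold higher (1.94 to 2.39), from Sox4 at 1.30 to Stmn2. The progenitor list was 1.67-fold lower (1.45 to 1.93), though Insm1 stood at 1.32 (1.03 to 1.72), and Egfr was found in 20 of 210 against 13 of 39 cells. The stem cell list was level, at 1.01 (0.855 to 1.19), with Sox2 at 1.003, Fabp7 at 0.354 (0.218 to 0.584) and Sox9 at 3.56 (1.76 to 8.41), none of them called. Sox9 was found in 88 of 210 against 6 of 39 cells.

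The astroglial list was 1.51-fold lower in cells with Dlx (1.31 to 1.73) but its ratio was 1.02 among cells with at least 3 of the 5 genes and 0.981 (0.833 to 1.16) at matched depth, so its direction rests on these choices. Slc1a3 was found after thinning in 9.52% of cells with Dlx and 40.5% of those without. The oligodendrocyte progenitor list had 19 molecules against 52, but 34 of the 52 lay in 1 cell. Subpallial genes, at least 2 of them, were carried by 14 of the 39 cells and 184 of the 210.

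The lists of the cycle itself had ratios on both sides of 1. The G2/M list was 1.27-fold higher with Dlx (1.19 to 1.35; 0 of 42 genes called) and cyclins and kinases 1.24-fold higher (1.12 to 1.37). The licensing list was 1.41-fold lower (1.15 to 1.71), and the S-phase list stood at 0.957 (0.865 to 1.06), or 1.13 and 1.12 under the other scalings. Ccnd2 stood at 1.57 (1.35 to 1.83), Cdkn1b at 2.49 (1.67 to 3.87) and Spc25 at 0.997 (0.665 to 1.54). Of the 39 cells, 10 held a molecule of Dlx5, Dlx6 or Dlx6os1. When these were dropped as well, 24 genes were higher in place of 7, with Stmn2 and Map1b by larger factors. The 24 can include Dlx5, Dlx6 and Dlx6os1, which were absent from the remaining cells by choice.

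**Figure D3:**
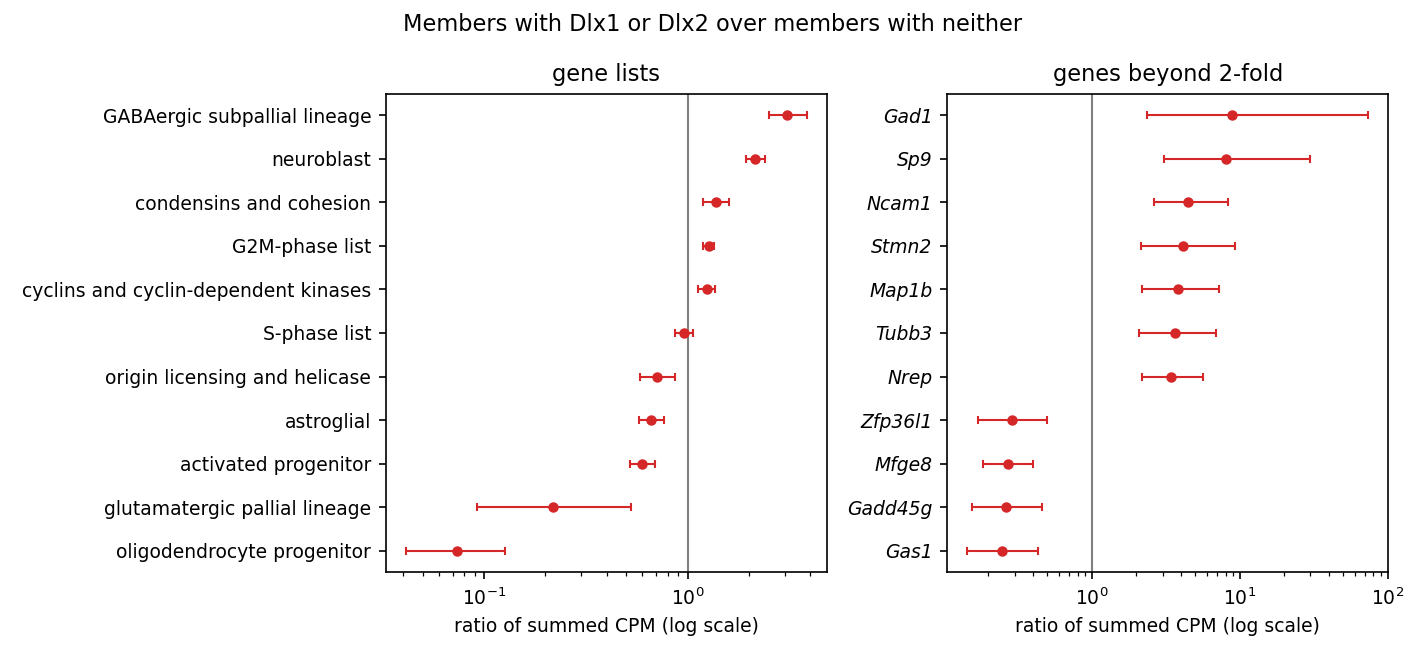
Cycling cells with Dlx1 or Dlx2 (210 cells) over cycling cells with neither (39 cells), as ratios of CPM on log axes with 95% intervals, for gene lists and for 11 of the 12 genes called. Gad1 and Sp9 lie at 8.79 and 8.03, and Gas1 at 0.249.

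The third comparison stayed within cells where Dlx1 or Dlx2 was found. It set the 210 cycling cells with either gene against 1357 cells with Dlx and none of the 5 genes. Most of the 1357 were neuroblast-like (1325 carried at least 2 neuroblast genes). Dlx1 and Dlx2 together stood at 2958 CPM in the cycling cells and 3768 CPM in the others. The Dlx1 ratio went from 0.688 to 1.32 at matched depth, so the Dlx level was not fixed. Of 4687 genes tested, 175 were called higher in the cycling cells (3.73%) and 125 lower (2.67%), 6.4% in all, and the median ratio was 0.942. Depth differed more here, with medians of 1505 and 635 molecules, and mitochondrial shares were 8.82% and 8.70%. Only 45 Dlx cells with none had at least 1522 molecules, and 29 of those carried at least 2 astroglial genes, so the values at matched depth compare 102 cycling cells with a mixed group. Of the same 45 cells, 33 carried at least 2 genes of the S-phase list and at least 2 of the G2/M list, so holding none of the 5 genes does not show that a cell was outside the cycle.

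Mitotic genes again led the higher side, an order that the rule again sets in part. Spindle genes were 44.0-fold higher (36.6 to 53.3; 15 of 15 called; 28.5-fold at matched depth), kinetochore genes 9.71-fold (8.66 to 10.9; 10 of 11) and condensin genes 9.60-fold (8.62 to 10.7; 7 of 7). Spc25 had 143 molecules against 0, at least 138-fold higher against a limit of 3 molecules per group, and Kif20a 67 against 0, at least 64.4-fold. Ccna2 had 330 against 6 molecules (159-fold, 72.1 to 436) and was 29.1-fold higher (9.81 to 142) at matched depth. Ccnb1 had 205 against 3, Hmmr 104 against 1, Aspm 89 against 2, and Aurkb, the kinase of the passenger complex, 67 against 1. The licensing list was 3.18-fold higher (2.79 to 3.63; 6 of 8 called) and 1.52-fold at matched depth (1.20 to 1.95), nucleotide supply 6.94-fold and 3.37-fold, and Hmgb2 15.0-fold (13.2 to 17.0).

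Ccnd2 and Cdk4 were close between cycling Dlx cells and Dlx cells with none, at 1.23 (1.16 to 1.31) and 1.33 (1.098 to 1.604), and neither was called. Cdk6 was 6.30-fold higher (4.12 to 9.82), Cdkn2c 13.6-fold and Cdkn2d 7.86-fold. Cdkn1b stood at 1.27 (1.11 to 1.45), and Btg1 was 3.22-fold lower in the cycling cells, with 52 against 483 molecules.

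The progenitor list was 3.14-fold higher in cycling than in other Dlx cells (2.83 to 3.48; 2 of 6 called) and 1.68-fold at matched depth (1.38 to 2.06). Insm1 was 3.18-fold higher (2.78 to 3.64) and Notch1 2.85-fold (2.04 to 3.98). Sox2 stood at 1.60 (1.37 to 1.87) and Sox11 at 0.969 (0.904 to 1.04).

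Neuroblast genes were lower in cycling Dlx cells, with 0 of 14 above 1 and 3 called. Their sum was 1.78-fold lower (1.72 to 1.84) and its ratio was 0.885 (0.822 to 0.954) at matched depth. Dcx, the microtubule protein of migrating neuroblasts, had 217 against 1561 molecules and was 2.49-fold lower in level, Stmn2 2.67-fold and Islr2 3.81-fold. After thinning, Dcx was found in 27.1% of cycling Dlx cells (57 of 210, 21.3 to 33.7) against 55.8% of the others (556 of 997, 52.6 to 58.9). At matched depth the ratios of Dcx, 0.561 (0.411 to 0.769), and Stmn2, 0.539 (0.346 to 0.844), no longer lay beyond 2-fold. Among the called genes with the lowest ratios, Meg3, a long noncoding RNA of neurons, was 11.2-fold lower (26 against 837 molecules), the stathmin Stmn4 6.05-fold and the neuronal zinc-finger factor Myt1l 6.50-fold. St6galnac5 and Slitrk3 had 0 molecules against 67 and 52, at least 7.74-fold and 6.01-fold lower. Slc6a11, Agt and Kif26a were 8.78-fold, 14.0-fold and 11.96-fold lower, and Prokr2, a receptor of migrating neuroblasts, L1cam, Ly6h and Pak7 had 1 molecule each against 76, 66, 64 and 61. At matched depth the intervals of Slc6a11, Agt and St6galnac5 stayed beyond 2-fold, whereas those of Meg3 (ratio 0.239, 0.0797 to 0.658), Stmn4 (0.751, 0.254 to 2.47), Myt1l, Kif26a, Prokr2, Pak7, Slitrk3, L1cam and Ly6h did not.

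Of 10 subpallial genes with enough molecules, 1 had a ratio above 1 with all cells used, and the median ratio was 0.664. Gad1 was 2.99-fold lower (87 against 750 molecules) and Meis2 2.45-fold, both called, whereas Dlx5 stood at 0.95 and Dlx6 was 3.22-fold higher (2.09 to 4.98), with the strand limit given above. The list summed to 0.559 (0.528 to 0.592) but to 1.02 (0.888 to 1.17) at matched depth, where Gad1 stood at 0.797 (0.447 to 1.47), so its direction was not stable to depth. Immediate early genes likewise stood at 0.643 and at 1.37 at matched depth. The astroglial list was lower on both, 0.438 (0.408 to 0.470) and 0.142 (0.131 to 0.155).

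**Figure D4:**
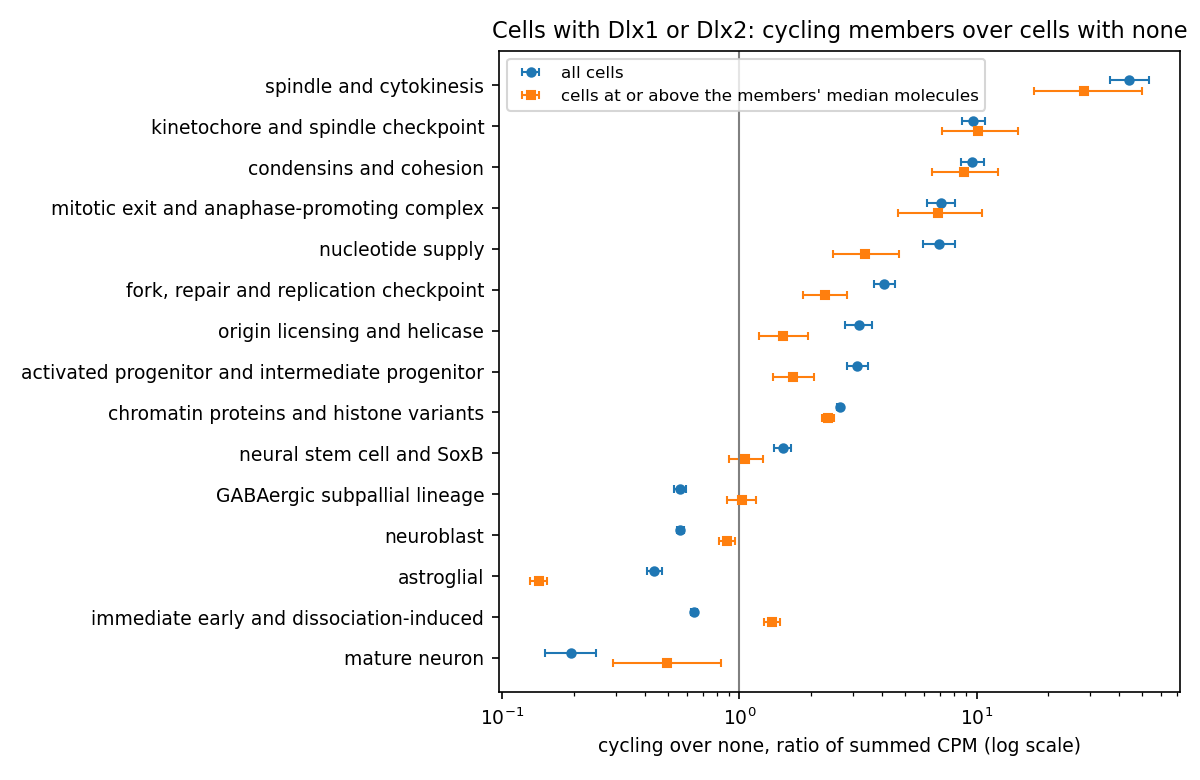
Gene lists in cycling Dlx cells over Dlx cells with none of the 5 genes, as ratios of summed CPM on a log axis with 95% intervals, for all cells (210 and 1357) and for cells with at least 1522 molecules (102 and 45). Spindle genes lie at 44.0 and 28.5, neuroblast genes at 0.563 and 0.885, and the subpallial list moves from 0.559 to 1.02.

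Across the 4 groups of brain cells, with all cells used, Stmn2 and Gad1 were highest in the Dlx cells with none. Stmn2 stood at 132 CPM in cycling cells without Dlx (95% Poisson interval 60.6 to 252), 550 CPM in cycling cells with Dlx (474 to 636) and 1472 CPM in Dlx cells with none (1397 to 1551). These intervals did not overlap, but the groups differed in depth, with medians of 1716, 1505 and 635 molecules. At matched depth Stmn2 in cycling cells with over without Dlx was 2.01 (0.862 to 5.74). In cycling Dlx cells over Dlx cells with none, Gad1 was 0.797 (0.447 to 1.47) and Stmn2 0.539 (0.346 to 0.844). The first 2 of these intervals included 1. Hmgb2 differed less between the cycling groups, at 4719 CPM with Dlx and 3784 CPM without, a ratio of 1.25 (1.09 to 1.43).

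**Figure D5:**
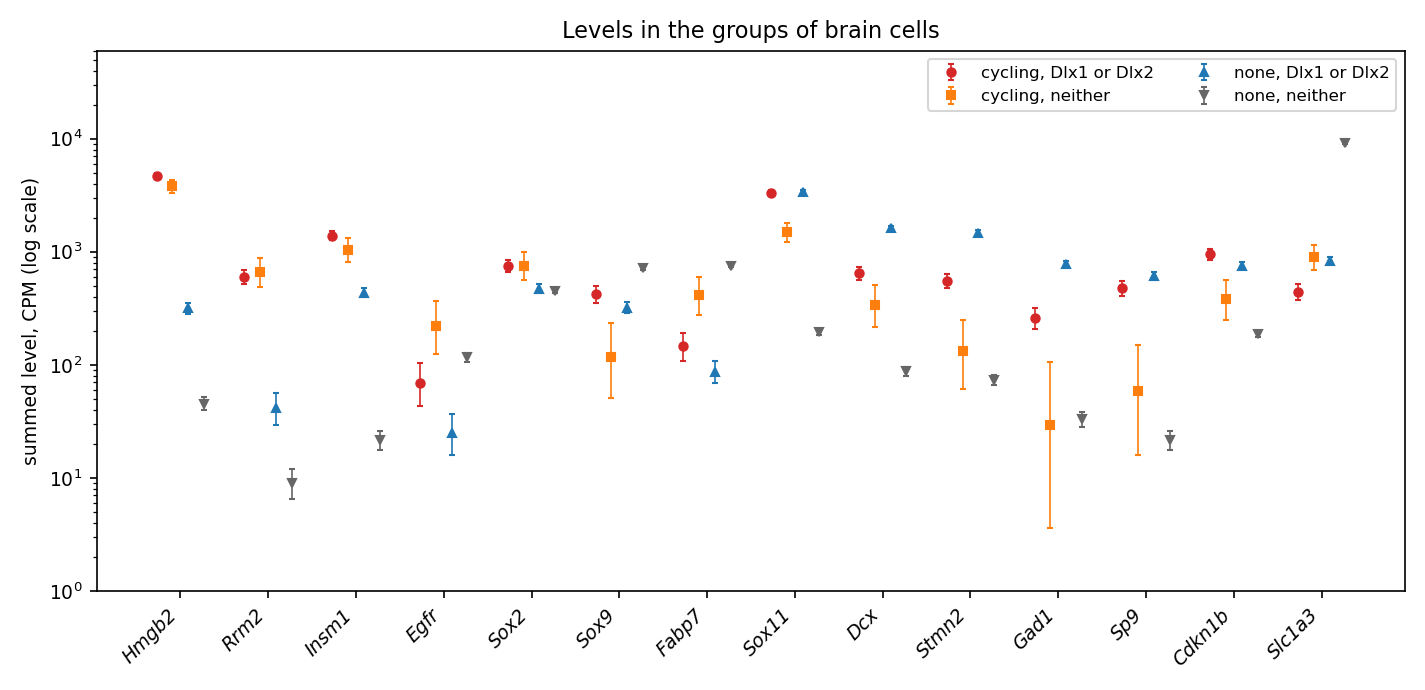
Summed level of 14 genes (CPM, log scale) with 95% Poisson intervals in cycling cells with and without Dlx1 or Dlx2 (210 and 39 cells) and in cells with none of the 5 genes (1357 and 6255 cells). All cells are used, without matching for depth. Stmn2 is highest in Dlx cells with none (1472 CPM), and Hmgb2 is high in both cycling groups (4719 and 3784 CPM).

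Under the same filters and gene rule, 173 of 1964 kept tail cells (8.81%) were cycling, of which 2 held Dlx1 or Dlx2. The rule depends on detection, and kept cells had a median of 1282.5 molecules in tail and 696 in brain. The tail and brain shares were not compared at matched depth. Cycling brain cells had 249-fold more Dlx1 and Dlx2 per 1000000 molecules than cycling tail cells (97.1 to 917). They also had 13.6-fold more of the progenitor list and 5.31-fold more of the neuroblast list, whereas the S-phase and G2/M lists differed by 1.74-fold and 1.65-fold. Tissue, age and depth cannot be told apart here.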

How the data were processed

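Single-cell RNA-seq of 1 brain and 1 tail library was used. The authors deposited molecule counts per gene and cell from the BD Rhapsody WTA Analysis Pipeline (version 1.10.1 per the file headers), on GRCm38 with GENCODE vM19. Molecular identifiers had been corrected for sequencing errors (RSEC), and the columns before that correction served as an alternative. The submitters' processing notes also list UMI-tools 1.0.1, STAR 2.7.1a, Subread and featureCounts 1.6.4, with no role given. Pipeline counting can merge or drop reads of near-identical genes, and errors left in identifiers inflate counts.

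The filter asked for over 200 genes, under 4000 genes and a mitochondrial share below 40%. It left 7988 brain cells with 6424466 molecules and a median of 696, and 1964 tail cells with 2817103. Counts were summed over the cells of a group, scaled to 1000000 (CPM) and compared as a ratio with an exact conditional binomial 95% interval. A gene was tested with at least 50 molecules over both sides and called where the whole interval lay beyond 2-fold. With 1 library per group there was no test between conditions. Shares have Clopper-Pearson intervals, and all intervals cover counting error only. Fold limits against 0 molecules used 3 counts per group. Astroglial-like cells were cells with none of the 5 genes that held at least 3 astroglial markers. Doublets were called with Scrublet (scanpy 1.11.5) and kept. In simulated sums without variation between cells, 200 genes with at least 200 molecules were raised or lowered by a fixed factor. Of these, 97 of 100 raised and 75 of 100 lowered genes were called for cycling cells against cells with none (9724 genes), and 0 unchanged genes. The simulation does not cover genes whose molecules lie in a few cells. Software was Python 3.11.15, scipy 1.17.1, edgeR 4.0.16 and DESeq2 1.42.0 (scaling factors only).

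Cells, gene lists and comparisons were chosen with earlier results of these data known. Values were given for list genes with at least 50 molecules, at most 5 per list, and for up to 12 called genes per direction with the interval bound farthest from 1. Gene models, mitochondrial genes and the genes of each split were left out, and some genes of the rule are not reported here. Other genes and values, among them Sox1, Dcx, Stmn2, Olig2, Egfr, Ccnd1, Ccnd3 and Zwint, were chosen after their values were seen. Promoters came from RefSeq (GRCm38.p6), and gene positions from GENCODE vM21.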

Additional observations from a re-analysis of the deposited data

How the results depend on the processing

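Of 168 values that summarise a comparison under 15 alternatives, 118 stayed within the limits set (1.5 times for counts) and 50 moved. Of 1845 values of single genes, lists and shares, 1475 stayed, 357 moved and 13 turned direction. Molecules before identifier correction and leaving out Scrublet doublets moved none of the 168. No paired analysis was possible because each group came from 1 library. For cycling cells against cells with none, 584 genes were higher under TMM and 638 under median-ratio scaling, 607 with at least 200 molecules, and 1160 were called (529 higher, 631 lower) at matched depth, where the mature neuron list turned to 1.20. For cycling cells with against without Dlx, either scaling gave 13 higher and 2 lower, left 4 lists below 1 and turned the ribosomal list to 1.09 and 1.08 and the mitochondrial list to 1.07 and 1.06. Calls were 25 (12 higher, 13 lower) with 20 molecules, 5 (4 and 1) with 200, 55 (12 and 43) with no minimum, 19 (11 and 8) by the mean over cells, 80 (27 and 53) with at least 1 gene, 31 (24 higher) against cells without any of the 5 Dlx genes, and 7 (1 lower) at matched depth, where 6 lists lay above 1. With at least 3 genes 3 were lower, and the astroglial list turned to 1.02 and the immediate early list to 0.992. For Dlx cells, cycling against none, 276 were higher with 20 molecules, 93 were called (43 higher, 50 lower) with 200, 496 (345 higher) with no minimum and 105 (54 and 51) at matched depth, where Egfr turned to 0.648, Sp9 to 1.30, Fos to 1.31, Dlx1 to 1.32, the subpallial list to 1.02 and the immediate early list to 1.37. Cycling cells made up 3.99% under a 20% mitochondrial limit, 2.34% with at least 3 genes and 4.71% with at least 1. The share with Dlx1 or Dlx2 was 84.3% unthinned and 81.0% thinned to 1000 molecules in cycling cells, and 17.8%, 11.1% and, under the 20% limit, 18.7% in cells with none. The fewer calls at matched depth and with more molecules required come with fewer cells or genes; the cause of the other shifts was not tested. With 1 library there is no measure of variation between animals, and the 39 cells without Dlx limit the calls against them.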
